A study of Mus musculus with 28 samples.

Results

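The 8 genes described here encode the peroxisome proliferator-activated receptors (Ppara, Ppard and Pparg), the retinoid X receptors with which they pair (Rxra, Rxrb and Rxrg) and the coactivators PGC-1alpha and PGC-1beta (Ppargc1a and Ppargc1b). They were taken from a list of PPAR signalling genes, a metabolic programme linked to dimeric p53, and are 8 of 20665 autosomal protein-coding genes placed on the mouse build GRCm38. Copy number was measured by exome sequencing in 24 tumours: 7 AD and 7 RP thymic lymphomas, T-cell tumours that arise in the thymus, with 5 AD and 5 RP sarcomas, tumours of connective tissue. AD mice carried the p53 AD allele and RP mice the p53 RP allele, in both cases opposite a p53 null allele that all groups share. The study compares dimeric with monomeric p53, and AD is known from its authors' work as the dimeric and RP as the monomeric form. The background was 50% BALB/C and 50% C57BL6, the p53 changes were germline, tumours were collected at the end point, and each of the 24 came from an animal of its own. The labels used here give no age and no treatment. The 4 ear samples, 2 AD and 2 RP, were not analysed here.

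PPARs are nuclear receptors that are activated by fatty acids and their derivatives. Each binds DNA as a pair with a retinoid X receptor, at a direct repeat of a short half-site, and switches on genes of fatty acid oxidation, lipid transport and lipid storage. The PGC-1 coactivators join the receptors on DNA and raise the transcription of genes for mitochondria and fat burning. Ppara is best known from liver and Pparg from fat tissue. In T cells, PPARs and retinoid X receptors are known as regulators of differentiation and inflammation. Copy number says how many copies of a gene a tumour holds, not how strongly the gene is expressed.

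Each value was read as a log2 copy ratio, the tumour over a comparison DNA. Log base, comparison DNA and centring were not given, so 0 need not be the copy number of that DNA. The median over the autosomes averaged -0.12 ± 0.07 in thymic lymphomas and -0.03 ± 0.03 in sarcomas (mean ± SD). Gained, lost, above 0 and below 0 refer to the values as deposited, except where centring is named. A gene was called gained at 0.3 or above, a linear ratio of 1.23, and lost at -0.3 or below, a linear ratio of 0.81. All 192 pairs of a member and a tumour had a segment over the gene. The tumours had 211948 to 212450 markers in 59 to 517 segments. The most segments were in AD thymic lymphomas 7 and 6, with 517 and 360, against 106 to 258 in the other thymic lymphomas. Autosomal marker totals separated the groups, with 204845 to 204849 markers in AD and 204917 to 204922 in RP thymic lymphomas, against 205075 to 205076 in AD and 205073 to 205074 in RP sarcomas, so any processing that went with these totals cannot be told apart from genotype or tumour type. Trp53, the engineered gene, was called lost in 0 of 24 tumours and stood between -0.23 and 0.36. The T-cell receptor beta locus, which T cells cut during rearrangement, was called lost in 13 of 14 thymic lymphomas and in 0 of 10 sarcomas.

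After adjustment over all genes, no member passed the test of AD against RP tumours, in thymic lymphomas or in sarcomas. The coactivator gene Ppargc1a had the smallest unadjusted p of the 8 in thymic lymphomas and its mean was higher in AD tumours of both types. The mean of Ppara was lower in AD than in RP thymic lymphomas. Those of Ppard and Rxrb, both on chromosome 17, were higher in AD than in RP sarcomas. None of these differences passed. Between tumour types, Pparg and Ppargc1b were lower in thymic lymphomas than in sarcomas and passed the test, Ppargc1b only before centring. Most values of the members lay within 0.05 of the median of their chromosome (87.0%, against 88.4% for all genes).

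**Figure D1:**
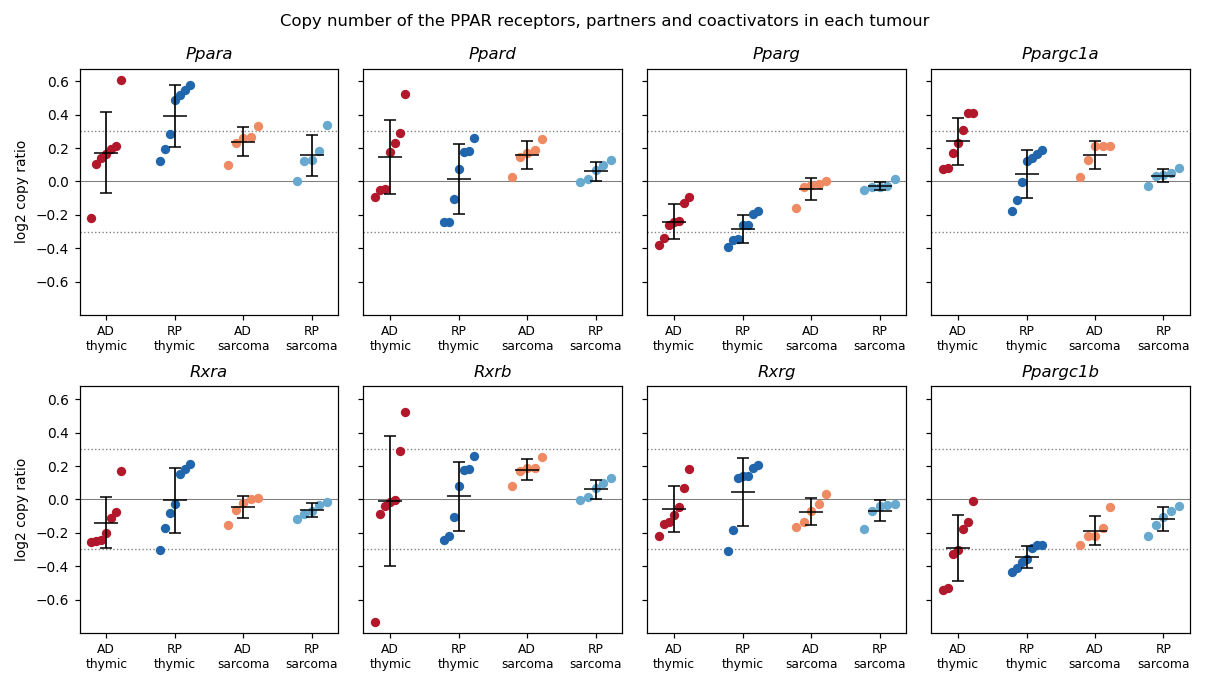
Log2 copy ratio of each of the 8 genes (vertical axes) in the 24 tumours, by group along the horizontal axes: AD and RP thymic lymphomas (7 each), then AD and RP sarcomas (5 each). Values are not centred on a tumour's autosomal median. Points are tumours, bars are mean ± SD, dotted lines mark 0.3 and -0.3; Pparg and Ppargc1b lie below 0 in all 14 thymic lymphomas, and Rxrb spans -0.73 to 0.52 in AD thymic lymphomas.

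The receptor gene Ppara, which encodes the receptor that drives fatty acid oxidation in liver, lies on chromosome 15 at 85734910 to 85806851. In thymic lymphomas it ran from -0.22 to 0.61 with a median of 0.16 in AD tumours, against 0.12 to 0.58 with a median of 0.49 in RP tumours. The AD range covered the whole RP range, but 1 of 7 AD and 4 of 7 RP tumours were gained. The means were 0.17 ± 0.24 in AD and 0.39 ± 0.19 in RP thymic lymphomas (SD, n = 7 each), a difference of -0.22 (two-sided exact permutation p = 0.0886, adjusted p = 0.545). In sarcomas it stood at 0.27, 0.23, 0.33, 0.26 and 0.10 in AD tumours 1 to 5, against 0.13, 0.34, 0.18, 0.13 and 0.00 in RP tumours 1 to 5. All 10 sarcomas were above 0 and the genotypes overlapped. The means were 0.24 ± 0.09 in AD and 0.16 ± 0.12 in RP sarcomas (SD, n = 5 each), a difference of 0.08 (exact permutation p = 0.254, adjusted p = 0.671), which was 0.04 without RP sarcoma 5 and 0.13 without RP sarcoma 2. The 2 differences had opposite signs, and the difference between them was -0.30 (exact permutation test within tumour type, p = 0.0331, adjusted p = 0.437), which did not pass. In that test 9.22% of all genes had an unadjusted p under 0.05 and 0% passed after adjustment, as did 0 of the 8 members. An AD minus RP difference as large as that of Ppara was found in 11.6% of all genes in thymic lymphomas.

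Ppara stood above the median of chromosome 15 in 14 tumours, below it in 1 and within 0.005 of it in 9. The segment over the gene began at 76910850 in 6 tumours, 2 AD thymic lymphomas, 2 AD sarcomas and 2 RP sarcomas, and at 77528803 in 4 others, 1 AD thymic lymphoma, 2 RP thymic lymphomas and 1 AD sarcoma. In the first 6 the gene was 0.04 to 0.11 above its chromosome. The gain calls in AD sarcoma 3, at 0.33, and RP sarcoma 2, at 0.34, rested on such distal segments of 26.4 and 22.4 Mb, where the chromosome medians of 0.25 and 0.24 were not called. They were the only calls of any member that its chromosome's median did not share, and both lay just above the cutoff.

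Ppard, which encodes the most widely expressed of these receptors, lies on chromosome 17 at 28232754 to 28301469, and 5.73 Mb separate its end from the start of Rxrb on the same chromosome. In thymic lymphomas it ran from -0.09 to 0.52 with a median of 0.18 in AD tumours, against -0.25 to 0.26 with a median of 0.07 in RP tumours. The groups overlapped, and the gene was gained in 1 tumour, AD thymic lymphoma 3. The means were 0.15 ± 0.22 in AD and 0.02 ± 0.21 in RP thymic lymphomas (SD, n = 7 each, difference 0.13, exact permutation p = 0.281, adjusted p = 0.586), and without AD thymic lymphoma 3 the difference was 0.07. Its sarcoma values were 0.17, 0.19, 0.15, 0.25 and 0.03 in AD tumours 1 to 5, against 0.13, 0.10, 0.07, 0.00 and 0.01 in RP tumours 1 to 5. Of the AD sarcomas 4 lay above every RP sarcoma, and AD sarcoma 5 lay within the RP range. The difference was 0.10 (exact permutation p = 0.0635, adjusted p = 0.557).

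Pparg, which encodes the receptor known for fat cell differentiation, lies on chromosome 6 at 115360879 to 115490404. It ran from -0.38 to -0.09 with a median of -0.24 in AD thymic lymphomas, against -0.39 to -0.18 with a median of -0.26 in RP thymic lymphomas. All 14 thymic lymphomas were below 0, and the gene was lost in 2 of 7 AD and 3 of 7 RP tumours. The autosomal median averaged -0.12 in thymic lymphomas. Sarcomas had -0.02, -0.03, -0.16, 0.00 and -0.02 in AD tumours 1 to 5, against -0.03, -0.05, 0.01, -0.03 and -0.03 in RP tumours 1 to 5. AD sarcoma 3 was the lowest, and the next lowest was RP sarcoma 2 at -0.05. AD minus RP was 0.04 in thymic lymphomas (exact permutation p = 0.397, adjusted p = 0.603; 0.02 to 0.07 with 1 tumour left out) and -0.02 in sarcomas (exact permutation p = 0.762, adjusted p = 0.999).

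No segment ended inside Pparg. In 8 tumours, 3 AD and 3 RP thymic lymphomas, 1 AD sarcoma and 1 RP sarcoma, the segment over the gene ended at the same base, 115993488, which is 503.1 kb past the gene and inside Plxnd1. The next segment began at 116022086, inside Tmcc1, in all 8, with 2 to 6 markers and a log2 of -2.11 in AD thymic lymphoma 4 and 0.23 to 0.67 in the other 7. The same end thus came in both genotypes and both tumour types, and the sign after it was negative only in AD thymic lymphoma 4, on 2 markers. Beyond the short segment of AD thymic lymphoma 3 the value was -0.37, after -0.38 over Pparg.

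Rxra encodes the retinoid X receptor most studied in liver and skin and lies on chromosome 2 at 27676445 to 27763319. It ran from -0.26 to 0.17 with a median of -0.20 in AD thymic lymphomas, against -0.30 to 0.21 with a median of -0.03 in RP thymic lymphomas. Of the AD tumours 6 of 7 were below 0, against 4 of 7 RP tumours. The 1 loss was in RP thymic lymphoma 4 at -0.30, just past the cutoff, and that tumour's autosomal median was -0.25. The difference was -0.13 (exact permutation p = 0.175, adjusted p = 0.586). In sarcomas it stood at -0.06, -0.02, -0.15, 0.01 and 0.00 in AD tumours 1 to 5, against -0.02, -0.07, -0.09, -0.11 and -0.03 in RP tumours 1 to 5, and the groups overlapped (difference 0.02, exact permutation p = 0.627, adjusted p = 0.999).

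Rxrg, whose receptor is known mainly from muscle and brain, lies on chromosome 1 at 167598362 to 167639623. It ran from -0.22 to 0.18 with a median of -0.09 in AD thymic lymphomas, against -0.31 to 0.21 with a median of 0.14 in RP thymic lymphomas. It was above 0 in 2 of 7 AD and 5 of 7 RP tumours, with the 1 loss again in RP thymic lymphoma 4. That tumour's autosomal median was -0.25, beside -0.31 for Rxrg. The difference was -0.10 (exact permutation p = 0.288, adjusted p = 0.586), and -0.16 without RP thymic lymphoma 4. Its sarcoma values were -0.07, -0.14, -0.17, 0.03 and -0.03 in AD tumours 1 to 5, against -0.07, -0.18, -0.03, -0.04 and -0.03 in RP tumours 1 to 5. The means of -0.07 in both groups overlapped (exact permutation p = 0.976, adjusted p = 0.999).

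Rxrb, whose receptor is found in most tissues, lies on chromosome 17 at 34031812 to 34038403, and its span of 6.6 kb is the shortest of the 8. It ran from -0.73 to 0.52 with a median of -0.02 in AD thymic lymphomas, against -0.25 to 0.26 with a median of 0.08 in RP thymic lymphomas. The AD range enclosed the RP range, with 1 loss in AD thymic lymphoma 4 and 1 gain in AD thymic lymphoma 3. The means were -0.01 ± 0.39 in AD and 0.02 ± 0.21 in RP thymic lymphomas (SD, n = 7 each, difference -0.03, exact permutation p = 0.871, adjusted p = 0.951), and without AD thymic lymphoma 4 the difference was 0.09. The sarcomas had 0.17, 0.19, 0.19, 0.25 and 0.08 in AD tumours 1 to 5, against 0.13, 0.10, 0.07, 0.00 and 0.01 in RP tumours 1 to 5. Of the AD sarcomas 4 lay above every RP sarcoma, and the fifth lay within the RP range. Ppard had the same values in AD sarcomas 1, 2 and 4 and in RP sarcomas 1 to 5. The sarcoma differences of the 2 genes are thus not separate observations. The means were 0.18 ± 0.06 in AD and 0.06 ± 0.05 in RP sarcomas (SD, n = 5 each), a difference of 0.12 (exact permutation p = 0.0238, adjusted p = 0.557). A difference as large was found in 17.6% of all genes in sarcomas.

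Rxrb was the only member with a segment end inside it, in AD thymic lymphomas 6 and 7. Its 2 annotated start windows, from 250 bases before to 50 bases after each start, are printed because the low segments of these tumours held 1 or both of them. They come from RefSeq on GRCm38.p6, + strand, 5′ to 3′, with each CpG dinucleotide in capitals.
Rxrb upstream start, chr17:34031562-34031861: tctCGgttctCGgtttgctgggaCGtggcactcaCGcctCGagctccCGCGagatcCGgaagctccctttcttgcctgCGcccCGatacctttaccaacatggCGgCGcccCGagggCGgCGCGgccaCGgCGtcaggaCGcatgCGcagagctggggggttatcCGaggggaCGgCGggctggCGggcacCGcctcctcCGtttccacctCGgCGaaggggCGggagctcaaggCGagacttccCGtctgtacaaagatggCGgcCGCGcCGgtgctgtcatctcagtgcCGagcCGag
Rxrb downstream start, chr17:34032100-34032399: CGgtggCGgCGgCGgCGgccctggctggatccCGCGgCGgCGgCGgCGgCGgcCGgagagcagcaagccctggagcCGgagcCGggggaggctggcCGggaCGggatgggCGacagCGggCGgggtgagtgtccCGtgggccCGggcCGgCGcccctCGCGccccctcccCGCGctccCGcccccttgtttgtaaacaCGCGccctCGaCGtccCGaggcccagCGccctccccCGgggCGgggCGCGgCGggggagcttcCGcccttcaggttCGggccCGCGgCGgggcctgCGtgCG
The upstream window has a GC content of 68.7% with 37 CpG dinucleotides and the downstream window 82.0% with 47, against medians of 53.0% and 7 over 31396 windows of 300 bases. A lower GC content than theirs was found in 88.2% and 99.5% of all windows. The half-site AGGTCA, searched on both strands, was not among the letters of either Rxrb window. It was in 4 of the 12 windows matched for 7 members, and in 16.3% of all windows.

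In AD thymic lymphoma 6, a segment of 5.79 kb, 34026208 to 34031997, stood at -0.54 with 17 markers, held the upstream window and reached 0.19 kb into Rxrb. The next segment, 34032826 to 34185729, stood at 0.00 and covered 84.6% of the gene, and the downstream window lay in the gap between them. In AD thymic lymphoma 7, a segment of 9.73 kb, 34024288 to 34034021, stood at -0.44 with 21 markers, held both windows and covered 33.5% of the gene, and the segment after it stood at 0.34. The low stretch thus ended inside Rxrb in both tumours and also took in its upstream neighbours H2-Ke6 and Slc39a7. Lost segments this short, with at most 25 markers and 50 kb, numbered 106 and 191 in these 2 tumours, against 13 to 40 in the other 12 thymic lymphomas and 2 to 14 in sarcomas. Of them 48 and 87 held a start window, with median GC contents of 62.8% and 59.0%. In the other 12 thymic lymphomas 0 to 9 held one, with medians of 45.3% to 67.7% where any did. In sarcomas 0 to 2 held one, with medians of 39.0% to 63.2%. The part of GC content in these values was not tested. Rxrb shared its values, within 0.005 in all 24 tumours, with 0 other genes, against 289 for Ppargc1b.

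**Figure D2:**
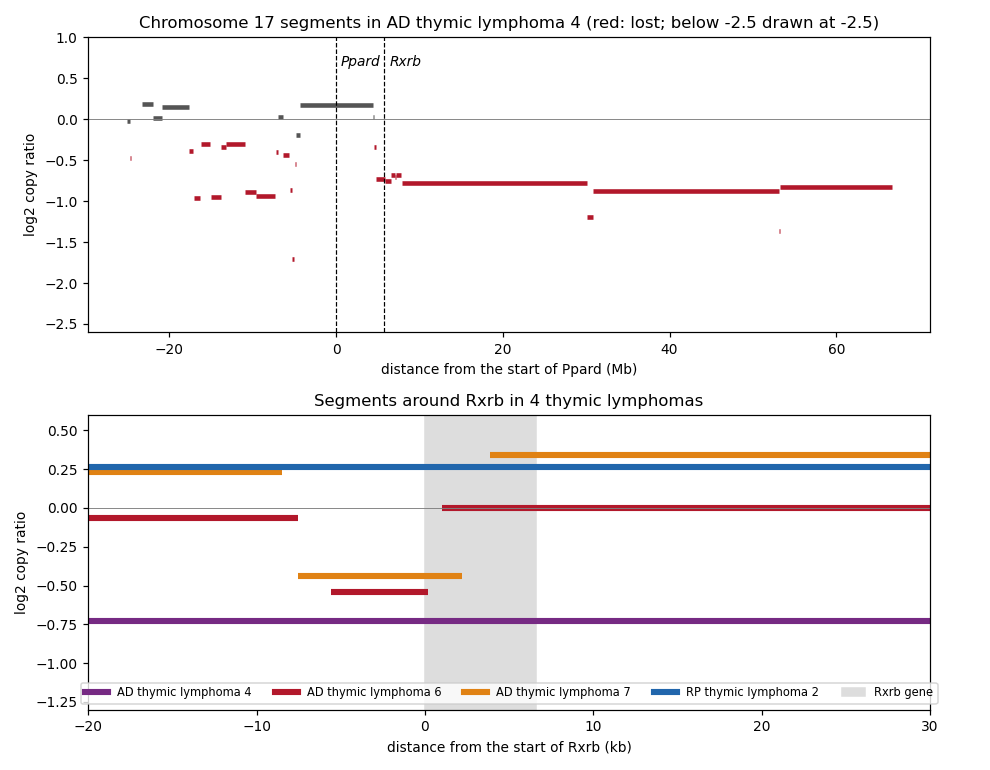
Upper panel: log2 copy ratio of the 46 segments of chromosome 17 in AD thymic lymphoma 4 (lost segments in red) by distance from the start of Ppard in Mb; Ppard stands at 0.18 and Rxrb at -0.73. Lower panel: segments around Rxrb in 4 thymic lymphomas by distance from its start in kb, with the gene shaded; the low segments of AD thymic lymphomas 6 and 7 end inside the gene.

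The 2 genes of chromosome 17 parted most in AD thymic lymphoma 4. There the chromosome was in 46 segments, against 2 to 27 in the other thymic lymphomas and 3 to 12 in sarcomas, and 38 of the 46 segments, or 82.3% of the length, were lost. Ppard stood at 0.18 in a segment of 8.68 Mb with 217 genes, which was 0.95 above the chromosome median of -0.78. Rxrb stood at -0.73 in a segment of 1.09 Mb with 385 markers and 44 genes, with 3 segments at -0.38, 0.03 and -0.34 between the 2 genes' segments. Ppard was thus outside the loss that took most of the chromosome, and Rxrb was inside it.

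Ppard also lay beside a loss in AD thymic lymphoma 2 that did not reach it. A segment of 840.6 kb with 202 markers, 28428351 to 29269000, stood at -0.88, began 126.9 kb past Ppard and overlapped 21 genes. Among them was Cdkn1a, the p53 target that encodes the cell cycle inhibitor p21, singled out after the values were seen and called lost in this 1 of 24 tumours. Ppard itself stood at -0.09 there.

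Ppargc1a, which encodes the coactivator that drives mitochondrial biogenesis, lies on chromosome 5 at 51454249 to 52115853. It ran from 0.08 to 0.41 with a median of 0.23 in AD thymic lymphomas, against -0.18 to 0.19 with a median of 0.12 in RP thymic lymphomas. All 7 AD tumours were above 0, against 4 of 7 RP tumours, and 3 AD and 0 RP tumours were gained. The means were 0.24 ± 0.14 in AD and 0.05 ± 0.15 in RP thymic lymphomas (SD, n = 7 each), a difference of 0.19 (exact permutation p = 0.0286, adjusted p = 0.469). In sarcomas it stood at 0.21, 0.13, 0.21, 0.21 and 0.02 in AD tumours 1 to 5, against 0.08, 0.04, 0.03, 0.05 and -0.03 in RP tumours 1 to 5. Of the AD sarcomas 4 lay above every RP sarcoma, and AD sarcoma 5 lay within the RP range. The means were 0.16 ± 0.08 in AD and 0.04 ± 0.04 in RP sarcomas (SD, n = 5 each), a difference of 0.12 (exact permutation p = 0.0397, adjusted p = 0.557). The difference between the tumour types' differences was 0.07 (exact permutation test within tumour type, p = 0.515). Differences as large as these were found in 14.5% of all genes in thymic lymphomas and in 11.3% in sarcomas.

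The gains of Ppargc1a in AD thymic lymphomas 1, 2 and 3, at 0.41, 0.41 and 0.31, came with gains of at least 98.2% of chromosome 5. The median of that chromosome averaged 0.25 ± 0.14 in AD and 0.07 ± 0.13 in RP thymic lymphomas (SD, n = 7 each, difference 0.18, exact permutation p = 0.0297, adjusted over 19 autosomes p = 0.327). Relative to its chromosome, Ppargc1a was lower in 11 tumours, higher in 0 and within 0.005 of it in 13, with the lowest gap of -0.17 in RP sarcoma 2. In sarcomas the difference in that median was 0.07 (exact permutation p = 0.183, adjusted over 19 autosomes p = 0.495). After the chromosome median was subtracted, AD minus RP was 0.02 in thymic lymphomas and 0.05 in sarcomas (exact permutation p = 0.17 and 0.167). The sarcoma remainder was 0.02 without RP sarcoma 2, and 5.4% of all genes had one as large as 0.05.

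Ppargc1b, which encodes a related coactivator of mitochondrial genes, lies on chromosome 18 at 61291445 to 61400756. It ran from -0.54 to -0.01 with a median of -0.30 in AD thymic lymphomas, against -0.43 to -0.27 with a median of -0.36 in RP thymic lymphomas. The gene was lost in 4 of 7 tumours of each genotype, and the AD range enclosed the RP range. Its sarcoma values were -0.17, -0.22, -0.27, -0.22 and -0.05 in AD tumours 1 to 5, against -0.15, -0.22, -0.07, -0.10 and -0.04 in RP tumours 1 to 5. It was below 0 in all 24 tumours and equalled its chromosome within 0.005 in 22 of them. These values are not centred, and the autosomal median averaged -0.12 in thymic lymphomas and -0.03 in sarcomas. In AD thymic lymphoma 1, Ppargc1b at -0.01 lay above that tumour's autosomal median of -0.08. AD minus RP was 0.05 in thymic lymphomas (exact permutation p = 0.506, adjusted p = 0.673) and -0.07 in sarcomas (exact permutation p = 0.198, adjusted p = 0.583). With 1 tumour left out, the difference in thymic lymphomas ran from 0.0079, without AD thymic lymphoma 1, to 0.10, without AD thymic lymphoma 6, and that in sarcomas from -0.10, without AD sarcoma 5, to -0.05, without AD sarcoma 3.

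**Figure D3:**
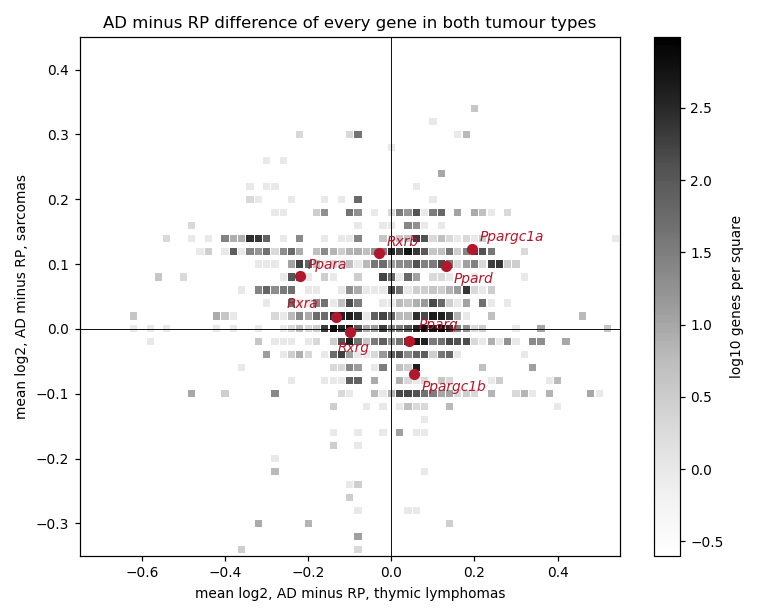
Mean log2 copy ratio of AD minus RP tumours in thymic lymphomas (horizontal axis) and in sarcomas (vertical axis). Grey squares count all genes on a log10 scale, 168 genes lie outside the axes, and red points are the 8 genes; Ppargc1a, at 0.19 and 0.12, and Ppard lie above 0 on both axes, and Ppara, at -0.22 and 0.08, has opposite signs.

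Across the 8 genes, 0 passed the exact permutation test of AD against RP in thymic lymphomas, where the share passing was 0% of all genes, and 8.55% of genes had p under 0.05 before adjustment, as Ppargc1a did. In sarcomas 0 passed, where the share passing was again 0%, and 5.07% of genes had p under 0.05 before adjustment, as Rxrb and Ppargc1a did. Limma on all genes passed 0 genes in either type and gave Ppargc1a adjusted p = 0.475 in thymic lymphomas and 0.36 in sarcomas. The exact test of 5 against 5 tumours cannot go below p = 0.00794, and a gene can pass the adjustment only if 15.9% of all genes reach that p. For 7 against 7 the smallest p is 0.000583 and the share needed is 1.17%. Admixed normal cells bring a tumour's values nearer to the level of normal DNA, which need not be 0 here. How many there were is not stated.

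After the chromosome median was subtracted, 0 of 8 passed in either type, where 0% of all genes passed in thymic lymphomas and 0% in sarcomas, and the smallest unadjusted p of a member was 0.143. The differences that remained were at most 0.05 in size, except for Ppard in thymic lymphomas at 0.14 (exact permutation p = 0.471), which was 0.00 without AD thymic lymphoma 4. Ppara's difference in thymic lymphomas, -0.22 at the gene, was 0.02 after subtraction, beside a difference of -0.24 in the median of chromosome 15.

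**Figure D4:**
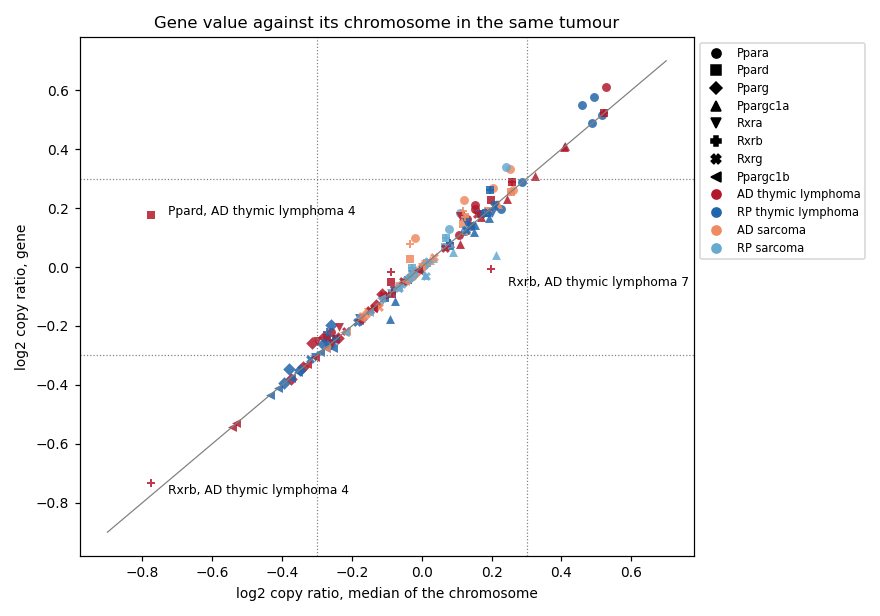
Log2 copy ratio of each gene (vertical axis) against the length-weighted median of its chromosome in the same tumour (horizontal axis), for 192 pairs of a gene and a tumour. Shapes are genes, colours are groups, the line marks equal values and dotted lines mark 0.3 and -0.3; Ppard in AD thymic lymphoma 4 lies 0.95 above the line.

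In 26 of 28 cases the call of a member was also that of its chromosome's median, here said to follow the chromosome. The other 2 were the distal chromosome 15 gains of Ppara. That median includes the gene's own segment. The same count over the calls of all genes is not given, so nothing particular to the members is read from it. No call was focal, meaning under 10 Mb and without a call of the chromosome. Under a stricter rule, with at least 80% of the chromosome's length called the same way, 24 of 28 followed. That rule also left out the losses of Pparg in AD thymic lymphoma 3 and of Rxra in RP thymic lymphoma 4. There 53.3% of chromosome 6 and 54.0% of chromosome 2, in that order, were called lost. In AD thymic lymphomas 6 of 56 pairs were gained (10.7%, against 10.3% of all gene and tumour pairs) and 7 lost (12.5% against 13.2%). In RP thymic lymphomas 4 of 56 were gained (7.14% against 10.5%) and 9 lost (16.1% against 22.9%). With each tumour centred on its autosomal median, 12 were gained (18.1% of all pairs) and 4 lost (6.37% of all pairs) in AD thymic lymphomas, and 13 were gained (19.7% of all pairs) and 2 lost (5.27% of all pairs) in RP thymic lymphomas, so gains outnumbered losses in both. In AD sarcomas 1 of 40 was gained (2.5% against 2.99%) and 0 lost (0.853% of all pairs), and in RP sarcomas 1 of 40 was gained (2.5% against 0.661%) and 0 lost (0.575% of all pairs). The 8 genes lie on 7 chromosomes, so these are few separate observations, and nothing particular to the members is read from the shares. Of the 6 gains in AD thymic lymphomas, 3 were in tumour 3. By Fisher's exact test on gained and on lost tumours, 0 members differed between AD and RP, and the smallest unadjusted p was 0.192, for gains of Ppargc1a in thymic lymphomas (3 of 7 AD and 0 of 7 RP tumours).

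The values nearest the cutoff show how much a call can rest on. Just inside were Ppargc1b in AD thymic lymphoma 7 at -0.304, Rxra in RP thymic lymphoma 4 at -0.305 and Ppargc1a in AD thymic lymphoma 3 at 0.308. The autosomal medians of these tumours were -0.248, -0.251 and -0.056, in that order. Just outside were Ppargc1b in RP thymic lymphoma 1 at -0.290 and Ppard and Rxrb in AD thymic lymphoma 5, both at 0.289. Members lay within 0.05 of their chromosome median in 167 of 192 pairs (87.0%, against 88.4% for all genes) and within 0.1 in 186 (96.9% against 95.8%).

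Between tumour types, 2 of the 8 genes were lower in thymic lymphomas than in sarcomas and 0 were higher, where 34.2% of all genes were lower and 5.69% higher. Pparg averaged -0.26 ± 0.09 in thymic lymphomas (n = 14) and -0.04 ± 0.05 in sarcomas (n = 10), a difference of -0.23 (exact permutation test within genotype, p = 9.57e-06, adjusted p = 9.8e-05). Ppargc1b averaged -0.32 ± 0.15 in thymic lymphomas and -0.15 ± 0.08 in sarcomas (SD, n = 14 and 10), a difference of -0.17 (exact permutation test within genotype, p = 0.00502, adjusted p = 0.0135). The median over the autosomes was itself lower in thymic lymphomas, at -0.12 ± 0.07 against -0.03 ± 0.03 in sarcomas. With each tumour centred on that median, Pparg differed by -0.14 (exact permutation adjusted p = 0.0111) and Ppargc1b by -0.08 (exact permutation adjusted p = 0.251), so the call of Ppargc1b ended. Centred in this way, 21.8% of all genes passed. The other 6 genes differed by -0.11 for Rxrb to 0.08 for Ppara, and none of these passed.

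Both lower genes moved with their chromosomes. The median of chromosome 6 was -0.28 ± 0.09 in thymic lymphomas and -0.04 ± 0.05 in sarcomas, beside -0.26 and -0.04 for Pparg. The median of chromosome 18 was -0.32 ± 0.15 in thymic lymphomas and -0.15 ± 0.08 in sarcomas, as for Ppargc1b. Over all 24 tumours the order of mean levels was Ppara at 0.25 ± 0.20, Ppargc1a at 0.12 ± 0.14, Ppard at 0.09 ± 0.17, Rxrb at 0.05 ± 0.24, Rxrg at -0.03 ± 0.14, Rxra at -0.06 ± 0.14, Pparg at -0.17 ± 0.14 and Ppargc1b at -0.25 ± 0.15. Neighbours in that order differed by less than their SDs.

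At least 1 member was called in every AD thymic lymphoma and in all but 1 RP thymic lymphoma, RP thymic lymphoma 3. None was called in 4 of 5 AD and 4 of 5 RP sarcomas. Of all genes, 3.9% to 18.9% were gained and 0.3% to 24.8% lost in single AD thymic lymphomas, against 4.5% to 14.1% gained and 0.3% to 40.9% lost in single RP thymic lymphomas. AD thymic lymphoma 3 had 5 members called, with gains of Ppard, Rxrb and Ppargc1a at 0.52, 0.52 and 0.31 and losses of Pparg and Ppargc1b at -0.38 and -0.33, in a tumour where 13.6% of all genes were gained and 12.8% lost. Ppard and Rxrb lay there in the same segment of 79.8 Mb, so their gains are not separate observations.

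The wider pathway was read from 5 lists of 93 other genes. In thymic lymphomas and in sarcomas, 0 genes of each list passed the AD against RP permutation test, as for all genes. Before adjustment, p was under 0.05 for 3, 2, 1, 0 and 1 genes in thymic lymphomas and for 2, 2, 1, 1 and 2 in sarcomas. The lists, in the order below, hold 20, 26, 16, 13 and 18 genes. Over all genes the shares were 8.55% in thymic lymphomas and 5.07% in sarcomas, and nothing particular to the lists is read from the counts. Among fatty acid oxidation targets, the median of AD minus RP was 0.09 over 20 genes in thymic lymphomas, against 0.04 over all genes. Hadha, which acts in mitochondrial beta-oxidation, lies like Ppargc1a on chromosome 5 and averaged 0.26 ± 0.14 in AD and 0.05 ± 0.15 in RP thymic lymphomas (SD, n = 7 each, exact permutation p = 0.021, adjusted p = 0.469). Cpt1b, the muscle carnitine transferase, lies on chromosome 15 and had the same means as Ppara. In sarcomas the list's 2 widest differences were those of Fgf21 (0.13) and Ucp3 (0.12), a hormone and a mitochondrial carrier gene, both on chromosome 7.

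Among lipid transport and storage targets, the median difference was 0.04 over 26 genes in thymic lymphomas. Cd36, the fatty acid uptake receptor on chromosome 5, averaged 0.22 ± 0.13 in AD and 0.01 ± 0.13 in RP thymic lymphomas (SD, n = 7 each, exact permutation p = 0.0122, adjusted p = 0.469). Dgat1, which makes triglycerides, lies on chromosome 15 and differed by -0.24. In sarcomas Lipe and Plin1, a fat cell lipase and a lipid droplet coat gene, both differed by 0.13. Both lie on chromosome 7, like Fgf21 and Ucp3. Among coregulators the median was 0.07 over 16 genes in thymic lymphomas. The acetyltransferase gene Ep300 on chromosome 15 differed by -0.23 there. In sarcomas Prdm16, a brown fat regulator on chromosome 4, differed by 0.29 with an SD of 0.40 in AD tumours. Nrip1, a corepressor gene on chromosome 16, differed by 0.17 there.

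Among other receptors that pair with retinoid X receptors, the median difference was -0.13 over 13 genes in thymic lymphomas and 0.09 in sarcomas, against 0.04 and 0.01 over all genes. Rarb and Thrb, a retinoic acid and a thyroid hormone receptor gene on chromosome 14, both averaged -0.01 ± 0.43 in AD and 0.28 ± 0.24 in RP thymic lymphomas (SD, n = 7 each, exact permutation p = 0.139, adjusted p = 0.556). In sarcomas the drug-sensing receptor gene Nr1i2 on chromosome 16 differed by 0.18 and the oxysterol receptor gene Nr1h2 on chromosome 7 by 0.12. Among partners and mitochondrial targets of PGC-1, the median was 0.02 over 18 genes in thymic lymphomas and 0.02 in sarcomas. In thymic lymphomas Prkaa1, a catalytic subunit of the energy sensor AMPK, on chromosome 15, differed by -0.27. The respiratory regulator Nrf1 on chromosome 6 differed by 0.17 there. In sarcomas Gabpa, another such regulator, on chromosome 16, differed by 0.17. Sirt3, a mitochondrial deacetylase gene on chromosome 7, differed by 0.12 there. Genes of the same chromosome, also in different lists, are not separate observations. Between tumour types, 13 of 26 lipid transport and storage genes were lower in thymic lymphomas and 3 higher, and 6 of 20 fatty acid oxidation genes were lower and 3 higher, beside 34.2% and 5.69% of all genes. Of the PGC-1 list 7 of 18 genes were lower and 2 higher, of the coregulators 3 of 16 were lower and 0 higher, and of the other receptors 1 of 13 was lower and 0 higher.

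By the mean absolute difference in log2 over the 24 tumours, Foxo1, at 0.06, was among the pathway genes on another chromosome whose profiles were nearest to Pparg. Those nearest to Ppargc1b were Acadm and Cycs, at 0.09 and 0.10. For Ppara they were Fabp3 and Mfn2 at 0.16 each, for Ppard Rara and Acadvl at 0.12 and 0.13, and for Ppargc1a Sod2 and Tfb1m at 0.14 and 0.15. For Rxra they were Esrrg and Acadl at 0.08 each, for Rxrg Ncoa3 and Slc27a4 at 0.08 each, and for Rxrb Crebbp and Rara at 0.16 and 0.17. These are descriptions of the same 24 profiles and carry no test.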

How the data were processed

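Exome libraries of 24 tumours, read at 150 nt, were analysed from a deposited segment table for each tumour. GRCm38 is the build in the submitters' processing notes, which also list GATK 4.1.0.0, BWA 0.7.17 and Trim Galore 0.6.5. Per the file headers, each row gives a segment's position, its count of markers and its mean. The authors' segment mean was read as a log2 copy ratio from its negative values and range; log base, comparison DNA and centring were not given in the sources used here. The number of markers in the deposited tables counts capture targets or windows, not reads, so read depth is unknown and error is the spread between tumours.

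A gene took the overlap-weighted mean of its segments at its RefSeq span (GRCm38.p6), and a chromosome the length-weighted median. Groups were read from the titles, genotypes and tissues. Group means were tested by two-sided exact permutation (3432 splits of 7 against 7, 252 of 5 against 5, and relabelling within genotype or tumour type), for every gene, adjusted over 20665 genes by Benjamini-Hochberg at 0.05. Alternatives were centring, the segment over the gene midpoint, a linear ratio, leaving out segments under 10 markers, call cutoffs of 0.2 and 0.5, limma 3.58.1, Fisher's exact test and leaving out each tumour. Tests were checked on simulated data. Python 3.11.15, numpy 2.4.6, pandas 2.3.3, scipy 1.17.1 and matplotlib 3.10.9 were used.

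The members and the gene lists were chosen with earlier results of these data known. All 8 members were named, with the 2 genes of each list that had the largest absolute difference in each tumour type, and for each member the 2 nearest pathway genes on another chromosome; some genes that this rule names are not reported here. Proteins were not used here, and Ppargc1b had no matched start window.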

Additional observations from a re-analysis of the deposited data

Results flagged for a closer look

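Of the 32 groups of member values tested (8 genes in 4 groups), 3 held a tumour far from the rest by Dixon's test, and chance flags about 1 in 20. Rxra stood at 0.17 in AD thymic lymphoma 4, against -0.26 to -0.08 in the other AD thymic lymphomas, and the median of chromosome 2 was 0.11 there. Pparg stood at -0.16 in AD sarcoma 3, against -0.03 to 0.00 in the other AD sarcomas, and equalled the median of chromosome 6 there. Rxrg stood at -0.18 in RP sarcoma 2, against -0.07 to -0.03 in the other RP sarcomas, and equalled the median of chromosome 1 there.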

How the results depend on the processing

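The calls of AD against RP did not change under any alternative run: 0 members passed under centring, the gene midpoint, the linear ratio, the marker filter, limma, Fisher's exact test, the removal of AD thymic lymphomas 6 and 7 (chosen after seeing the data) and the removal of any 1 tumour. Over these, Ppargc1a stayed higher in AD, by 0.16 to 0.24 in thymic lymphomas and 0.11 to 0.16 in sarcomas on the log2 scale. In sarcomas the exact test of 5 against 5 tumours can pass a gene only if 15.9% of all genes reach p = 0.00794. An unchanged 0 in that test thus shows little. Between tumour types, 2 members passed under every alternative except centring, which left 1. Without single tumours Pparg differed by -0.24 to -0.21 and Ppargc1b by -0.19 to -0.14.

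Differences near 0 changed sign, none of them called. AD minus RP of Rxrb in thymic lymphomas was 0.023 by the midpoint and 0.0003 on the linear scale (-0.118 to 0.091 without single tumours), and after subtraction of the chromosome 0.026 by the midpoint (-0.040 to 0.0060). With a marker-weighted chromosome median, Rxrg in thymic lymphomas was -0.0010 and Ppara in sarcomas -0.0090. Between tumour types, centring gave 0.061 for Ppard and 0.072 for Rxra, and Rxra was 0.0004 without AD thymic lymphomas 6 and 7 (-0.043 to 0.0079 without single tumours). Without single tumours, AD minus RP in sarcomas was -0.031 to 0.0097 for Pparg and -0.032 to 0.019 for Rxrg (-0.0008 to 0.010 after subtraction). In thymic lymphomas after subtraction Pparg was at -0.0073 to 0.0068, and the difference between tumour types' differences for Ppard was -0.028 to 0.076.

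Calls moved with the cutoff and with centring. At 0.2, 11 of 56 pairs were gained and 16 lost in AD thymic lymphomas (15.1% and 31.7% of all pairs). In RP thymic lymphomas 9 of 56 were gained and 18 lost (16.9% and 39.8%). In AD sarcomas 9 of 40 were gained and 3 lost (13.3% and 4.14%). In RP sarcomas gains stayed at 1 of 40, with the share of all pairs gained not reported here, and 1 was lost (1.81% of all pairs lost). At 0.5, 3 were gained and 3 lost in AD thymic lymphomas (2.73% and 4.85% of all pairs). In RP thymic lymphomas 0 were lost (1.85%), and 0 were gained in AD and in RP sarcomas (0.244% and 0.194%). With centring, gains and losses were 12 and 4 in AD thymic lymphomas (18.1% and 6.37% of all pairs). In RP thymic lymphomas they were 13 and 2 (19.7% and 5.27%), against 4 and 9 before centring. AD sarcomas had 2 gains (5.24%). Calls that followed the chromosome were 63 of 68 at 0.2, 7 of 9 at 0.5 and 33 of 34 with centring, again without a count over all genes. Without single tumours, gains were 3 to 6 in AD thymic lymphomas, the fewest without tumour 3 (9.73% of all pairs). They were 0 to 1 in AD and in RP sarcomas, with 0 without AD sarcoma 3 (0.641%) and without RP sarcoma 2 (0.381%). The causes were not tested, and depth over each gene is unknown.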
